A study of Schizosaccharomyces pombe with 3 samples.

Results

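Chromatin bound by the corepressor subunit Ssn6 was measured at the fission yeast genes that make amino acids and nucleotides. The array features concerned are those named ade, arg, his, ilv, leu, lys, trp or ura with a number, or carrying such a symbol in the gene annotation. They comprise 98 of the 10228 features of the array and represent 49 genes, each with 1 intergenic and 1 coding feature. By pathway these are 10 purine genes (ade), 6 pyrimidine genes (ura), 8 arginine genes (arg), 7 histidine genes (his), 4 isoleucine and valine genes (ilv), 3 leucine genes (leu), 7 lysine genes (lys) and 4 tryptophan genes (trp). The annotated products of all 49 genes are enzymes, or enzyme subunits, of these pathways. A further 7 features of 4 genes share the symbol pattern but have other annotated roles, and are given apart at the end.

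All data come from 1 group of Schizosaccharomyces pombe cells, which carried Ssn6 fused to green fluorescent protein (Ssn6-GFP) and were harvested in mid log phase from YES, a rich medium that supplies amino acids and nucleobases. After crosslinking, a polyclonal anti-GFP antibody was used for precipitation, and the recovered DNA was amplified, labelled and hybridised beside input DNA on 2-colour slides 1, 2 and 10 (n = 3 slides). The labels speak of 3 separate experiments. No untagged strain, mock precipitation or second growth condition was analysed here, and the remaining genotype of the strain is not given in the sources used here, so a ratio compares precipitated with input DNA within the same cells and not with a control strain.

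Ssn6 works with Tup11 and Tup12 as a corepressor, which does not bind DNA by itself and is brought to promoters by sequence-specific factors. The genes described here encode the de novo routes from central metabolism to purines, pyrimidines and several amino acids. In budding yeast many amino acid genes are switched on together by the activator Gcn4, which binds the core TGACTC, whereas fission yeast uses the unrelated factor Fil1 in this role. A class of enzyme genes whose products are supplied by the medium was therefore read for Ssn6 signal under one nutrient-rich condition.

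Each value below is a log2 ratio of spot intensities after the median of its slide was set to 0, so that 1 unit is a doubling relative to the median feature. The direction of the ratio is not settled. The labels put input in Cy3 and precipitate in Cy5 on every slide without dye swap, and the files name only channels A and B. Read as channel B over A, slides 1 and 2 correlated at 0.72 across features, whereas slide 10 correlated at -0.48 with slide 1 and at -0.54 with slide 2. The values printed here take channel B over A on slides 1 and 2 and channel A over B on slide 10, with the numerator called the likely immunoprecipitate. Reading channel B over A on all slides turns the sign of every slide 10 value, and values read that way are given for the main results.

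Signal limited what could be measured. Of the 49 intergenic features, 18 had a ratio on slide 1, 12 on slide 2 and 48 on slide 10, and for the 49 coding features these numbers were 41, 30 and 48. All 3 slides measured 9 of the intergenic features, or 18.4% against 25.7% of all intergenic features, and 30 of the coding features, or 61.2% against 52.4%. A further 27 intergenic features had a ratio on slide 10 alone. In the numerator channel, 19 of 59 measured features exceeded the 95th percentile of the negative-control spots on slide 1, 4 of 42 on slide 2 and 96 of 96 on slide 10. That limit was 1959, 4452 and 222.7 intensity units on slides 1, 2 and 10, and in the denominator channel it was 0 on slides 1 and 2 and 1026 on slide 10. Rejected negative-control spots counted as 0, so a limit of 0 means that nearly all of them were rejected in that channel. The limit depends on the share of rejected spots and is not like for like between slides and channels. By these counts, most ratios of slides 1 and 2 rest on a numerator within the range of the negative controls.

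The promoters on which the intergenic results turn are printed here from RefSeq (ASM294v3), from 250 bases before to 50 after the annotated gene start, 5′ to 3′ on the gene's own strand. The files give no probe coordinates, so the extent of the array feature inside or beyond each window is unknown. The leu2, lys4 and his5 promoters carried the highest intergenic ratios among features on 2 slides and were chosen after their values were seen. Those of arg1 and ade4 belong to the highest means, and those of ade3 and arg6 to the lowest means, among features on all 3 slides. The his7, leu3 and lys2 promoters are those of the 49 that hold a searched motif, which is set in capitals.
leu2 (chrI:4439605-4439904, + strand): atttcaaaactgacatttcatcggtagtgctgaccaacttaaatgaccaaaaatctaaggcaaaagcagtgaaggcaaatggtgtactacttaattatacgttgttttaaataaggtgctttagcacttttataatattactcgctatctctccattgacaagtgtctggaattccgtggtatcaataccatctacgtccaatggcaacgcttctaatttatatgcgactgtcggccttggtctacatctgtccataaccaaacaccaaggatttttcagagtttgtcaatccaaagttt
lys4 (chrII:3507499-3507798, - strand): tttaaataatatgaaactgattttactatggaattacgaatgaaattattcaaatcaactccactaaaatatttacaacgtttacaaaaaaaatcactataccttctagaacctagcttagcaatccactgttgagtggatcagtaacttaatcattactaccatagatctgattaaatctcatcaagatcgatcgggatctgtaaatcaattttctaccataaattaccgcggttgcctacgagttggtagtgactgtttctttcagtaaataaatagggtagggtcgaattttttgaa
his5 (chrII:2267373-2267672, - strand): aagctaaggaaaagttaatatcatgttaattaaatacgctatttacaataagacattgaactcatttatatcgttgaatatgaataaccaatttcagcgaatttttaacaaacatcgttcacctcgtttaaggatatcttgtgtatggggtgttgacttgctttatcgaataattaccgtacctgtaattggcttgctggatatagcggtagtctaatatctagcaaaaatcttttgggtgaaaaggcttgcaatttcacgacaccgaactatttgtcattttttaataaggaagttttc
arg1 (chrIII:1614887-1615186, - strand): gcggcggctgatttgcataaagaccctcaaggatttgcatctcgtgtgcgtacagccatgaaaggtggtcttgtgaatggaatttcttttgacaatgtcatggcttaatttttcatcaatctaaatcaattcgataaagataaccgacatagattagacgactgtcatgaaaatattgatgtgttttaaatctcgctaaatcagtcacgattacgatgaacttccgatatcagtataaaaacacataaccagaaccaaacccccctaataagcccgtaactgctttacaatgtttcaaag
ade4 (chrI:5366369-5366668, - strand): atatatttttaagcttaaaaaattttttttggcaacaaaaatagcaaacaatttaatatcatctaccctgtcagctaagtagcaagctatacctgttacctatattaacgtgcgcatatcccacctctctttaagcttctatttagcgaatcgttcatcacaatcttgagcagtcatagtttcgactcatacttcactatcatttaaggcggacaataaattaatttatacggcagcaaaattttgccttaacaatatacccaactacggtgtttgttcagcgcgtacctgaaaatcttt
ade3 (chrI:1333271-1333570, - strand): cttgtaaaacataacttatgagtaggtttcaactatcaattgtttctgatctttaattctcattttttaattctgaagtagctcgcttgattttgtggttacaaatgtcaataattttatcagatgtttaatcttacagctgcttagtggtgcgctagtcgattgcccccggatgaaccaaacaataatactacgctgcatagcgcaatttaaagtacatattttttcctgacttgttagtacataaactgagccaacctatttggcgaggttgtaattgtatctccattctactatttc
arg6 (chrII:1228975-1229274, + strand): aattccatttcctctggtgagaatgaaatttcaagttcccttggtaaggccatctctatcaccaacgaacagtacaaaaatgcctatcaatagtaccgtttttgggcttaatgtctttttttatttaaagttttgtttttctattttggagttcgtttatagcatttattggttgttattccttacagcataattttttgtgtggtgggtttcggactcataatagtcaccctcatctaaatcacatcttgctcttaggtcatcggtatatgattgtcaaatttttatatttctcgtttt
his7 (chrII:2042143-2042442, - strand): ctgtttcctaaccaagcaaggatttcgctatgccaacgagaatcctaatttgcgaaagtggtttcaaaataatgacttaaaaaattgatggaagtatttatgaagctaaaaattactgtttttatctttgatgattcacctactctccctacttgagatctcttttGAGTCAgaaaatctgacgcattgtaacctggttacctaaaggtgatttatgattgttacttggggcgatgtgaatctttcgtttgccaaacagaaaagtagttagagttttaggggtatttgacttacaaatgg
leu3 (chrII:2690563-2690862, - strand): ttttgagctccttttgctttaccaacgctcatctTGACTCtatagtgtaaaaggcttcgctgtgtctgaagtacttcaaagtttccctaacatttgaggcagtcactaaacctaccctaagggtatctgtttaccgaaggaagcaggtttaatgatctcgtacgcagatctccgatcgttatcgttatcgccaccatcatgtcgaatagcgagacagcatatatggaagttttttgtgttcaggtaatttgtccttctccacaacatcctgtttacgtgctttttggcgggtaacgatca
lys2 (chrI:1675552-1675851, + strand): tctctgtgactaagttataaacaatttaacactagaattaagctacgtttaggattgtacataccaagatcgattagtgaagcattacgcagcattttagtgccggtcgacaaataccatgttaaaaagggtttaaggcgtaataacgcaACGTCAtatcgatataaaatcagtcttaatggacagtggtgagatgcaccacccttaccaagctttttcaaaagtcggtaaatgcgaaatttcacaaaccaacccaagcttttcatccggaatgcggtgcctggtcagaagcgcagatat

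Motifs were searched in these windows on both strands. The core TGACTC, which reads GAGTCA on the other strand, was present in 2 of 49 member promoters, or 4.08%, those of his7 and leu3, against 356 of 5112 promoters of all genes, or 6.96%. The ATF/CREB core TGACGT, which reads ACGTCA on the other strand and shares its opening letters TGAC with the other motif, was present in the lys2 promoter alone, 1 of 49 or 2.04%, against 302 of 5112 or 5.91%. The printed leu2, lys4, his5, arg1, ade4, ade3 and arg6 windows hold neither set of letters. The capitals describe letters only, and no binding was measured at this resolution.

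Upstream of the biosynthesis genes no intergenic feature was called on all 3 slides. In the limma fit over 3961 features, of which 8.23% were enriched and 5.6% depleted, 0 of the 9 measured intergenic features were enriched and 0 depleted (Benjamini-Hochberg adjusted p 0.171 to 0.939), and 0 of the 9 had an unadjusted p under 0.05. Among all intergenic features tested, 261 of 1327 or 19.7% were enriched, 12 or 0.904% were depleted, and 35.7% had an unadjusted p under 0.05. The 9 means ranged from -0.38 to 0.74 with a median of 0.13, against a median of 0.36 over all intergenic features, and 6 were above 0. With channel B over A on all slides, no feature of the whole table passed in either direction (138 of 3961 or 3.48% had an unadjusted p under 0.05). The 9 means read that way were 0.70 at arg1, 0.54 at arg6, 0.25 at ade6, 0.23 at his2, -0.02 at ilv1, -0.08 at ade9, -0.12 at ade4, -0.28 at lys12 and -0.34 at ade3.

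The purine features spanned much of this range. Upstream of ade4, which encodes the amidophosphoribosyltransferase of the committed step of purine synthesis, the log2 ratio was 0.38, 0.37 and 1.12 on slides 1, 2 and 10. Its mean of 0.62 ± 0.43 (SD, n = 3) was above 0 on every slide, with slide 10 apart from the other slides, and did not pass (limma adjusted p = 0.186), although it did when slides were normalised by loess (0.0191). Its gap of 1586 bp is shared with the divergent gene tif223, described below among the regulators.

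Upstream of ade6, the carboxylase gene whose loss gives red colonies in fission yeast, the ratio was 0.23, 0.84 and 0.31, a mean of 0.46 ± 0.33. Upstream of ade9, a folate enzyme gene, it was 0.33, -0.38 and 0.18, with slides on both sides of 0. Upstream of ade3, which encodes phosphoribosylformylglycinamidine synthase, it was -0.51, -0.57 and -0.06, a mean of -0.38 ± 0.28 and the lowest of the 9 means (limma adjusted p = 0.413). Of the other purine genes, ade1 (0.87 and 0.15 on slides 1 and 10) and ade8 (0.69 and 0.44) had features above 0 on the 2 slides that measured them.

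The highest mean of the 9 lay upstream of arg1, the acetylornithine aminotransferase gene, at 0.57, 1.59 and 0.06, a mean of 0.74 ± 0.78 (limma adjusted p = 0.171). Slide 2 carried most of it and slide 10 was near 0. The arg1 gap is short, at 181 bp to the tandem neighbour ubc12. Upstream of arg6, which encodes acetylglutamate synthase, slides 1 and 2 gave 0.27 and 0.32 and slide 10 gave -1.03, the lowest slide 10 value of any intergenic feature in the set. The remaining features on 3 slides were those of his2 (histidinol dehydrogenase; 0.16, 0.39 and -0.16), ilv1 (acetolactate synthase; -0.12, -0.14 and -0.18) and lys12 (homoisocitrate dehydrogenase; -0.46, 0.25 and 0.64). Only the ilv1 feature among them had 1 sign on all slides, and its mean was -0.15 ± 0.03.

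**Figure D1:**
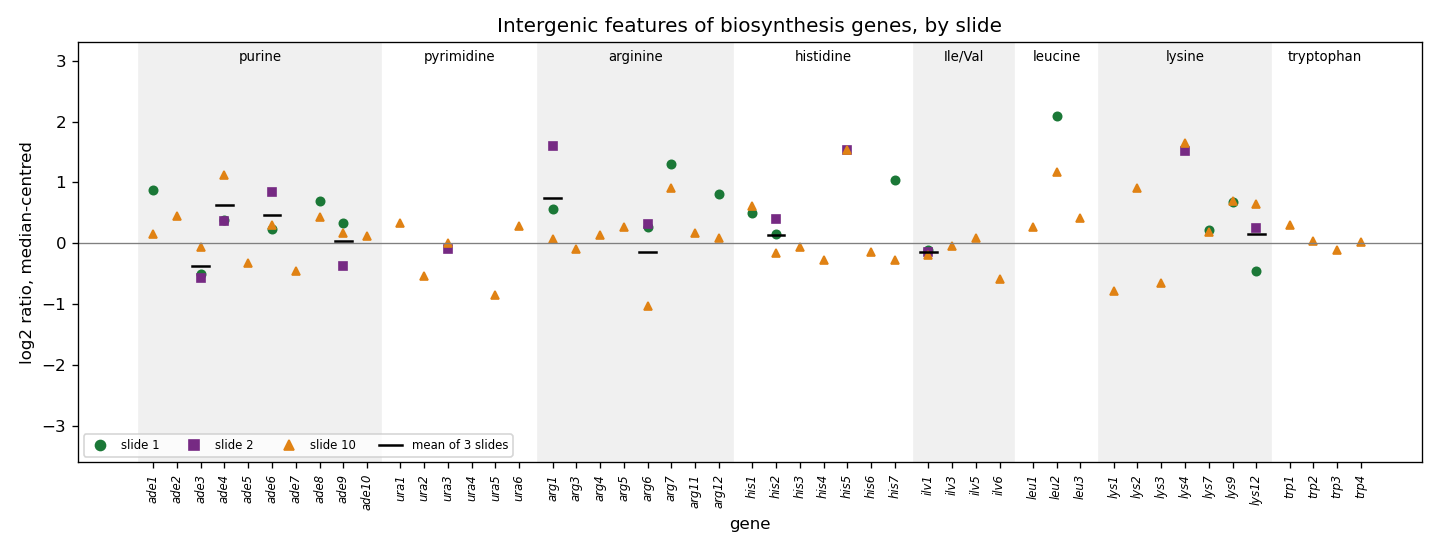
Log2 ratio (likely immunoprecipitate over input, slide median 0) of each of the 49 intergenic features, grouped by pathway, with 1 marker per slide where a ratio was measured and a bar for the mean of 3 slides. The leu2, lys4 and his5 features have every value between 1.17 and 2.10, and 27 of the 49 features rest on slide 10 alone.

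The 12 intergenic features measured on exactly 2 slides included the highest ratios of the set. Upstream of leu2, the 3-isopropylmalate dehydratase gene at chrI:4439855-4442513, the ratio was 2.10 on slide 1 and 1.17 on slide 10. Upstream of lys4, the homocitrate synthase gene at chrII:3505708-3507548 that opens the lysine route, it was 1.51 on slide 2 and 1.64 on slide 10. Upstream of his5, the imidazoleglycerol-phosphate dehydratase gene at chrII:2266351-2267422, it was 1.53 on both of these slides. All 6 values were above 1, and in each case the slide without a ratio lacked signal in 1 or both channels.

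When features on 2 or more slides were admitted, these 3 features were enriched, with a mean of 1.64 at leu2 (limma adjusted p = 0.0328), 1.58 at lys4 (0.0303) and 1.53 at his5 (0.0348). In that fit 3 of 21 member intergenic features were enriched, which is near the share of all intergenic features, 336 of 2511 or 13.4%. These calls need slide 10 turned: with channel B over A on both of its slides the mean was 0.46 at leu2, -0.06 at lys4 and 0.00 at his5. Each of the 3 rests on 1 spot on slide 1 or 2. The numerator intensity there was 2656 at leu2 and 23589 at his5, above the negative-control limit of their slide, and 2746 at lys4, below it. The single his5 spot on slide 2 was high in both channels, with a denominator of 5323 units. The same feature gave 2481 over 1000 units on slide 10. On slide 10 the denominator intensity was 1226 at leu2 and 1374 at lys4, above the denominator limit of 1026, and 1000 at his5, below it. Upstream of arg7, the argininosuccinate lyase gene, values of 1.30 and 0.90 on slides 1 and 10 gave a mean of 1.10 that did not pass (limma adjusted p = 0.113; 0.20 with channel B over A). The means of the 12 features ran from -0.05 to 1.64 with a median of 0.56, and 11 were above 0.

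The ranking used in the series, in which a feature is listed when its median percentile over slides exceeds 85, could be applied to 48 intergenic features of the set. It listed 5 of them or 10.4%, against 835 of 4923 or 17% of all intergenic features. These were the features of leu2 (percentile 95.2), lys4 (95.1), his5 (94.8), lys2 (89.5) and arg7 (89.4). That of lys2, the homoaconitate hydratase gene, was ranked from slide 10 alone, where it gave 0.91. All 5 belong to amino acid pathways, 5 of 33 such features or 15.2%, which is near the 17% of all intergenic features. Of 15 ranked nucleotide features 0 were listed. This split rests on few features and was not tested. With channel B over A on all slides the list again held 5 of the 48 (14.1% of all intergenic features). They were other features, those of ilv6, lys1, lys3, ura2 and ura5, which makes 3 amino acid and 2 nucleotide features.

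Coding features of the set were lower than the slide median more often than not. Of the 30 measured on all slides, 25 or 83.3% had a mean below 0, against 67.5% of all coding features, and their median was -0.32 against -0.28. The fit called 0 enriched and 2 depleted, or 6.67%, where 204 of 2601 coding features or 7.84% were depleted and 62 or 2.38% enriched. Of the 30, 7 had an unadjusted p under 0.05, which held for 29.6% of all coding features. The share of called members lies near that of coding features in general.

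The coding feature of lys12, at chrI:2993442-2994929, gave -1.40, -2.22 and -0.97 on slides 1, 2 and 10. Its mean was -1.53 ± 0.64, or 2.89-fold lower than the median feature (limma adjusted p = 0.0150), below 0 on 3 of 3 slides. The coding feature of ade3, at chrI:1329091-1333320, gave -1.89, -2.59 and -0.52, a mean of -1.67 ± 1.05 or 3.18-fold lower (limma adjusted p = 0.0221). Slide 2 was lowest and slide 10 nearest 0 for both genes.

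Both calls depended on the slides and on the direction. Without slide 2 neither passed, with a mean of -1.19 at lys12 (limma adjusted p = 0.216) and -1.21 at ade3 (0.258). With channel B over A on all slides the means were -0.88 and -1.32 (adjusted p = 0.791 and 0.777). The numerator of ade3 was above the negative-control limit on slide 10 alone, and that of lys12 on slides 1 and 10. On slide 2 the numerators of both (1871 units at lys12 and 1562 at ade3) lay within the negative-control range.

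Tryptophan genes had the lowest coding median among pathways with more than 1 feature on all slides. With features on 2 slides admitted, the leucine features (leu1 at -0.72 and leu3 at -0.75) were lower. The coding ratio of trp1, which encodes an anthranilate synthase component, was -2.05, -1.34 and -0.09, a mean of -1.16 ± 0.99 (limma adjusted p = 0.0701). At trp2, tryptophan synthase, it was -1.57, -0.61 and -0.14, a mean of -0.77 ± 0.73. At trp3, the other anthranilate synthase component, it was 0.06, -0.45 and -1.19, and at trp4, which encodes phosphoribosylanthranilate transferase, -1.38, -1.35 and 0.88. All 4 means were below 0 with a median of -0.70, but none passed, and trp3 and trp4 changed sign between slides. Without slide 10, trp1 (limma adjusted p = 0.0174) and trp4 (0.0231) passed, but neither did without slide 1 or without slide 2. Read as channel B over A on all slides, the means were -1.10 at trp1, -0.68 at trp2, 0.27 at trp3 and -1.20 at trp4. The median of these 4 features was -1.48 on slide 1, -0.97 on slide 2 and -0.11 on slide 10.

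A single coding feature stood well above 0, that of his5, with 0.82, 1.10 and 0.91. Its mean of 0.95 ± 0.14 missed the threshold (limma adjusted p = 0.0534), and was 0.34 with channel B over A on all slides. It passed when intergenic and coding features were centred apart (limma adjusted p = 0.0440). With local background subtracted (0.104), normexp (0.0806) or loess (0.201) it did not pass. Nor did it without slide 1 (0.144), slide 2 (0.354) or slide 10 (0.0573). Its numerators on slides 1 and 2, 1850.5 and 2400.5 units, lay within the negative-control range. The his5 feature was the only coding feature of the set on the percentile list, at 87.5, or 1 of 48 against 251 of 4861 or 5.16%. The intergenic feature of the same gene was among the highest above. Under channel B over A on all slides the list held the coding features of his6 and lys3 (5.86% of all coding features).

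Among the other coding features, that of arg1 gave -0.99, -1.65 and -0.27, a mean of -0.97 ± 0.69 (limma adjusted p = 0.0793). It was thus below 0 where its intergenic feature was above. Its limma adjusted p was 0.0315 without slide 10, but 0.185 without slide 1 and 0.530 without slide 2. Its numerators on slides 1 and 2, 1772.5 and 1793.5 units, lay within the negative-control range. For leu1, 3-isopropylmalate dehydrogenase, the coding feature gave -0.57, -0.86 and -0.73, a mean of -0.72 ± 0.14 with little spread (limma adjusted p = 0.116). The coding feature of arg12, argininosuccinate synthase, had the highest arginine mean at 0.51 ± 0.51, from 0.03, 1.04 and 0.46. These means were, as channel B over A on all slides, -0.79 at arg1, -0.23 at leu1 and 0.20 at arg12. The remaining pathway extremes were ade9 (mean -0.03) for the highest purine value, ura6 (0.15) and ura1 (-0.34) for pyrimidines, his2 (-0.23) for the lowest histidine value, ilv1 (-0.27) and ilv6 (-0.48), and lys4 (0.30) for the highest lysine value. None of these passed the test.

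**Figure D2:**
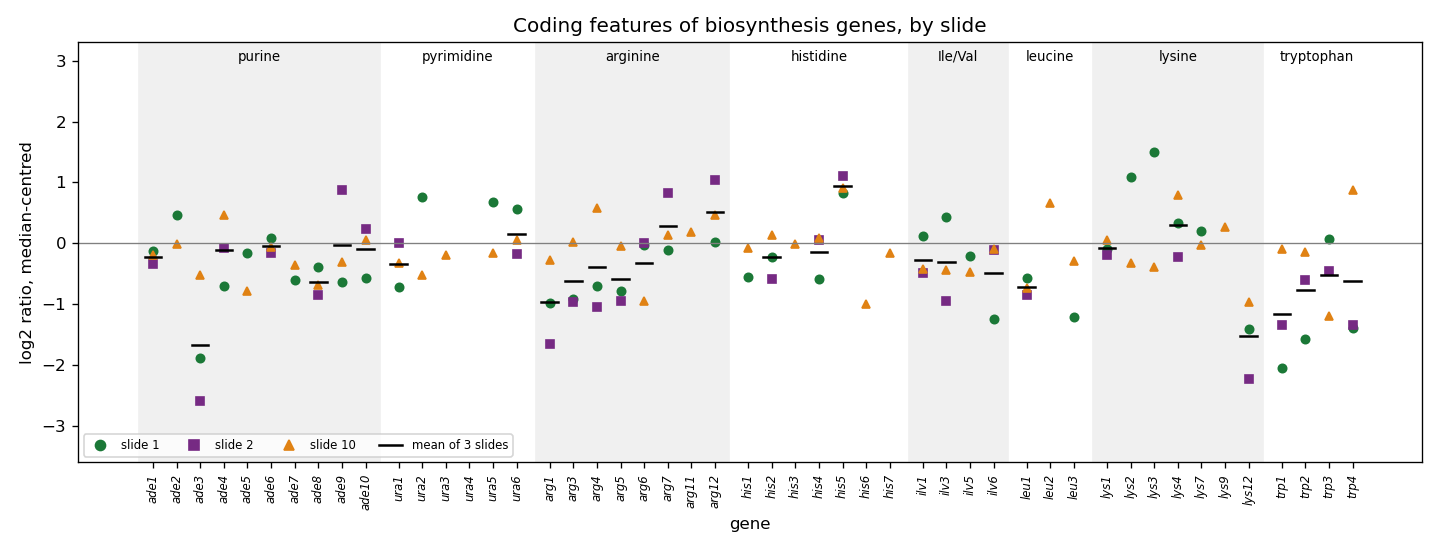
Log2 ratio of each of the 49 coding features, grouped by pathway, with 1 marker per slide where a ratio was measured and a bar for the mean of 3 slides. The lys12 and ade3 features, the 2 that passed the test, lie lowest on slide 2 at -2.22 and -2.59, and the his5 feature lies above 0 on all slides.

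Pathways were then compared, as a description without a test because features of a pathway are not replicates. Intergenic features on 3 slides allowed a median over more than 1 feature for purines (0.25, 4 features) and arginine (0.30, 2 features). Coding medians were -0.10 for purines (7 features), -0.10 for pyrimidines (2), -0.39 for arginine (7), -0.15 for histidine (3), -0.31 for isoleucine and valine (3), -0.08 for lysine (3) and -0.70 for tryptophan (4). The single leucine feature on 3 slides was at -0.72. The distance between the highest and the lowest of the coding medians over more than 1 feature was 0.62, beside a median SD between slides of 0.51 for a single member feature.

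Slide 10 measured nearly every feature and gave a broader view from 1 slide. Its intergenic median was 0.10 over 48 features of the set, against 0.07 over all intergenic features, and 30 or 62.5% were above 0 against 55.3%. These slide 10 values take channel A over B. Read as channel B over A, every sign and the order of the medians turn, with 37.5% of the intergenic and 66.7% of the coding features of the set above 0, against 44.7% and 56.5% of all features. By pathway the intergenic medians on slide 10 were 0.64 for lysine (7 features), 0.42 for leucine (3), 0.16 for purines (10), 0.11 for arginine (8), 0.03 for tryptophan (4), 0.00 for pyrimidines (5), -0.12 for isoleucine and valine (4) and -0.15 for histidine (7). Lysine features on this slide ran from -0.78 at lys1 to 1.64 at lys4, so that the order of medians does not describe each gene. The 27 intergenic features seen on slide 10 alone ran from -0.84 (ura5) to 0.91 (lys2) with a median of 0.02, and 14 were above 0. Coding features of the set had a slide 10 median of -0.12 against -0.08, and 16 of 48 or 33.3% were above 0 against 43.5%.

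**Figure D3:**
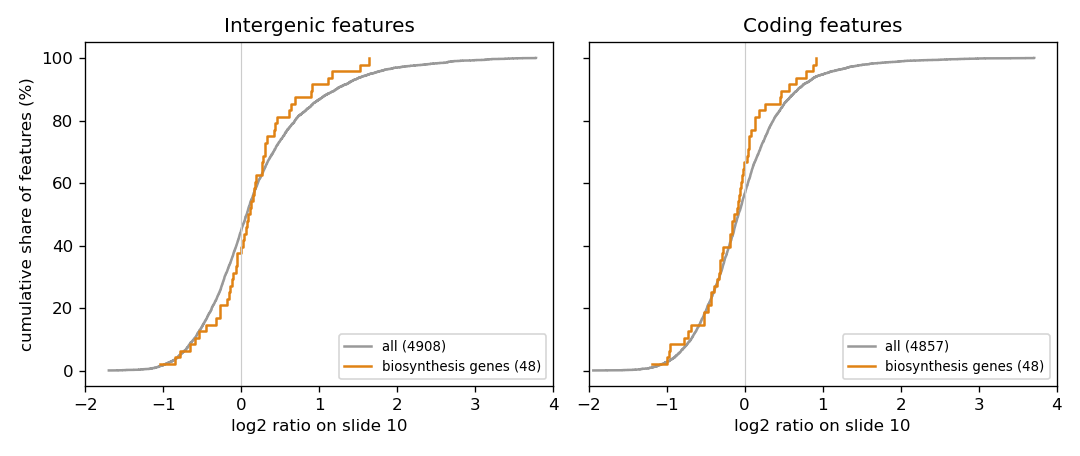
Cumulative share of features (percent, vertical axis) against the log2 ratio on slide 10, for intergenic and coding features in separate panels, with all features of each kind in grey and the biosynthesis genes (48 of each kind) in orange. The medians of the biosynthesis features, 0.10 and -0.12, lie close to those of all features, 0.07 and -0.08.

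Within genes, the intergenic feature was set against the coding feature. For the 9 genes with both features on all slides, the mean difference, intergenic minus coding, was 0.73 on slide 1, 1.06 on slide 2 and 0.42 on slide 10. Its mean of 0.74 ± 0.32 (SD, n = 3 slides) was above 0 on 3 of 3 slides, and the exact two-sided sign-flip permutation test gave p = 0.25, the smallest p that 3 slides allow. All 630 genes with both features gave 0.69 ± 0.24, a value within the slide spread of the set. With channel B over A on all slides the difference was 0.46 ± 0.78 (exact permutation p = 0.5). It was 0.16 when the kinds of feature were centred apart (exact permutation p = 0.5), which sets the median of each kind to 0. In the authors' deposited table it was 0.06 over 22 genes (exact permutation p = 1). That table holds intensities of 1 channel, with an unknown centring of each feature kind, and not ratios to input. The value from it is therefore no check of this difference.

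The mean difference was above 0 in all 9 genes and the difference on every slide in 5 of them, whereas ade9, arg6, his2 and ilv1 each had 1 slide below 0. Means ran from 0.07 at ade9, 0.12 at ilv1 and 0.18 at arg6 to 1.29 at ade3, 1.68 at lys12 and 1.71 at arg1. The widest differences thus included the depleted coding features of ade3 and lys12, whose intergenic means were -0.38 and 0.14. On slide 10, 32 of 48 genes or 66.7% had the higher value at the intergenic feature, with a median difference of 0.34, against 62.0% and 0.20 over 4380 genes, and each of these differences turns its sign when slide 10 is read as channel B over A.

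The position of the intergenic features was examined from the annotation, since the files name each one only by a gene. Reading it as the region upstream of that gene, features of divergent neighbours, which would then share 1 region, correlated at 0.62 on slide 10 over 1098 pairs, against 0.20 over 1142 convergent pairs. These are descriptions across features of 1 slide. Of the 49 members, 26 lie in divergent and 23 in tandem gaps, whose median length was 978 bp (181 to 2233 bp) against 869 bp over 4576 matched features. An intergenic value of a divergent member therefore cannot be assigned to the member rather than to its neighbour.

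The leu2 gap is the longest of the set at 2233 bp and is divergent from SPAC9E9.17c, whose feature gave 1.09 on slide 10 beside 1.17 at the leu2 feature. The his5 gap, 1285 bp, is also divergent, whereas that of lys4, 978 bp behind mrpl16, is tandem. Genes of the set also neighbour each other: arg3, ornithine carbamoyltransferase, and arg11, an enzyme of the acetylated ornithine precursors, share a divergent gap of 1335 bp, with slide 10 values of -0.10 and 0.16. The gene ura5 lies 285 bp behind arg6, and the features of both were low on slide 10, at -0.84 and -1.03. Over the 23 divergent gaps with both features on slide 10, in which arg3 and arg11 count both ways, 14 pairs had the same sign.

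The orotidine 5'-phosphate decarboxylase gene ura4 was the 1 member gene with no ratio on any slide. Its coding feature had no signal in either channel on slides 1, 2 and 10, which was so for 27 of 9903 intergenic and coding features without a missing mark in their name. Its intergenic feature had signal in channel B alone, 1626 units on slide 1 and 1106 on slide 10. Nearby features did hybridise on slide 10. Among the genes examined around ura4, the nearest were SPCC330.03c and pmp20. The annotated upstream neighbour of ura4, new25, was not among them. The intergenic feature of SPCC330.03c gave 5236 and 1122 units in channels A and B and a log2 ratio of 2.43, with 2.20 and 2.36 on slides 1 and 2. On the other side, the coding feature of pmp20 gave 1884 and 1037 units and a ratio of 1.08. As background, ura4 is a common selectable marker that many laboratory strains lack. Whether this strain carries it is not given in the sources used here, and absence of the gene, a failed spot and weak hybridisation cannot be told apart.

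**Figure D4:**
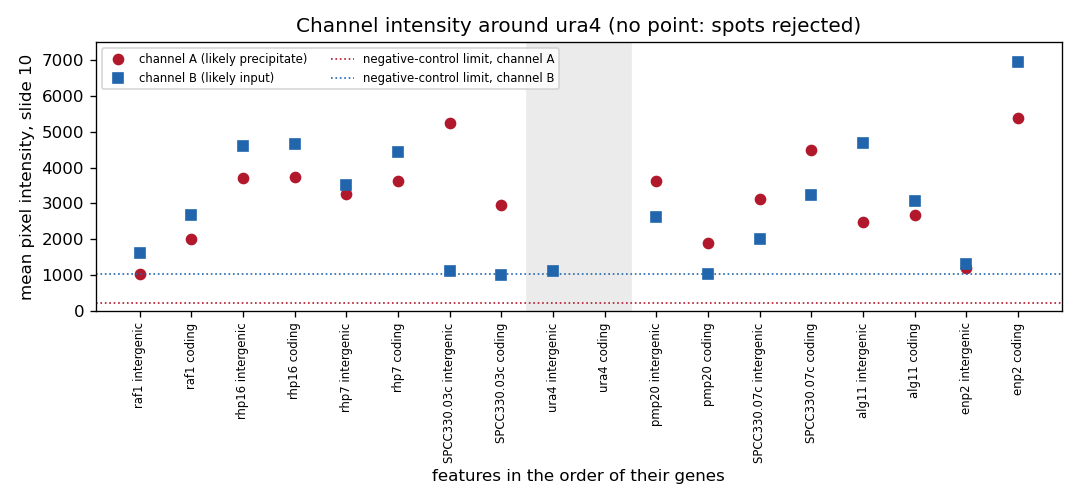
Mean pixel intensity of channels A and B on slide 10 for features in gene order around ura4, with no marker where no signal was recorded and dotted lines at each channel's negative-control limit. The ura4 coding feature has no point in either channel and its intergenic feature only 1 in channel B at 1106. The nearest features shown, those of SPCC330.03c and pmp20, have both.

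The other genes of amino acid and nucleotide metabolism were taken from lists and summarised for comparison, without a test. These lists were chosen with earlier results of these data known. Upstream of other amino acid genes, 6 of 8 features on all slides were enriched and 0 depleted (19.7% of all intergenic features were enriched). The median of these 8 features was 1.22, against 0.13 for the 9 member features, and 0.15 with channel B over A on all slides. On slide 10, read as channel A over B, all 38 features of the list had a ratio. Their median there was 0.21, against 0.10 for 48 member features and 0.07 for all intergenic features. The wide gap between 1.22 and 0.13 thus describes only features with signal on all 3 slides. The highest mean with slide 10 turned was that of gdh1, which encodes the glutamate dehydrogenase that assimilates ammonium, at 2.09, 2.20 and 3.40, a mean of 2.56 ± 0.73 (limma adjusted p = 0.00170). Next was sua1, the sulfate adenylyltransferase gene, at 1.80, 2.41 and 2.50, a mean of 2.24 ± 0.38 (limma adjusted p = 0.00173). Both were above 1 on every slide. The order of these means changed with channel B over A on all slides, to 0.57 at sua1, 0.45 at gdh2, 0.30 at gdh1, 0.17 at met9, 0.03 at met14 and -0.01 at gln1, none of which passed.

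The other enriched features of that list lay upstream of gdh2 (1.41), met14 (1.25), gln1 (1.20) and met9 (1.09), and those of aro2 (0.33) and aro1 (-0.13) did not pass. The genes gdh1, gdh2 and gln1 act in glutamate and glutamine metabolism, sua1 and met14 in sulfate assimilation, and met9 in the folate supply of methionine synthesis. With 2 slides admitted, eca39 (2.39), a branched-chain aminotransferase gene that acts in the pathways of the ilv and leu genes, met17 (2.06) and asn1 (1.64) were also enriched (-0.21, 0.24 and 0.25 with channel B over A), and met9 no longer passed (limma adjusted p = 0.0593). In that fit 8 of 17 intergenic features of this list were enriched, against 3 of 21 of the set and 13.4% of all intergenic features. On the percentile list stood 13 of 38 features of this list or 34.2%, against 10.4% of the set and 17% of all intergenic features. Under channel B over A on all slides, 8 of the 38 or 21.1% were listed, 3 of them among the 13, against 14.1% of all intergenic features. The difference between the lists was not tested.

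The list of other nucleotide genes holds 4 symbols whose annotated products lie outside nucleotide metabolism: cts2 (chitinase), prs1 (proline-tRNA ligase), cdc8 (tropomyosin) and dak1 (dihydroxyacetone kinase). Without them 1 of 6 intergenic features on all slides was enriched, that of the adenosine kinase gene ado1 (1.11; limma adjusted p = 0.0348; 0.54 with channel B over A). With them it was 2 of 9, the other being cts2 (1.63). With 2 slides admitted, the CTP synthase gene cts1 (2.07) and cdc22 (1.44), the large subunit of ribonucleotide reductase, also passed (1.36 and 0.29 with channel B over A). The slides differed widely at cts1, with 3.43 on slide 2 and 0.71 on slide 10. At cdc22, slides 1 and 10 gave 1.73 and 1.15. Of regulators of amino acid synthesis, 1 of 5 intergenic features was enriched, that of gcn3, an eIF2B subunit gene (1.00; limma adjusted p = 0.0495; 0.11 with channel B over A), a call that was lost with 2 slides admitted (0.0708). The counts on all slides, 1 of 6, 2 of 9 and 1 of 5, lie near the share of 19.7% over all intergenic features. With 2 slides admitted, 3 of 13 intergenic features of the nucleotide genes by annotation and 0 of 5 of the regulators were enriched. The share over all intergenic features was 13.4% in that fit. On all slides the intergenic feature of tif223, opposite ade4, was at 0.99 and did not pass (limma adjusted p = 0.0508). The feature of fil1 itself gave -0.38, -0.25 and 0.74, with slides on both sides of 0.

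Coding features of these lists passed in both directions. Enriched were ser2 (1.05), phosphoserine phosphatase, and spd1 (1.17), an inhibitor of ribonucleotide reductase. Depleted were pro2 (-1.12), tyr1 (-1.14), suc22 (-1.66), the small subunit of ribonucleotide reductase, gcn2 (-1.03), the kinase of the amino acid starvation response, and tif224 (-1.19), another eIF2B subunit. In all, 1 of 23 coding features of other amino acid genes was enriched and 2 depleted, 1 and 1 of 14 of other nucleotide genes by annotation, and 0 and 2 of 9 of the regulators, beside 2.38% and 7.84% of all coding features. With 2 slides admitted, ser2, pro2, tyr1, gcn2 and tif224 no longer passed (limma adjusted p 0.0523 to 0.0622), and spd1 and suc22 did. None of them passed with channel B over A on all slides.

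**Figure D5:**
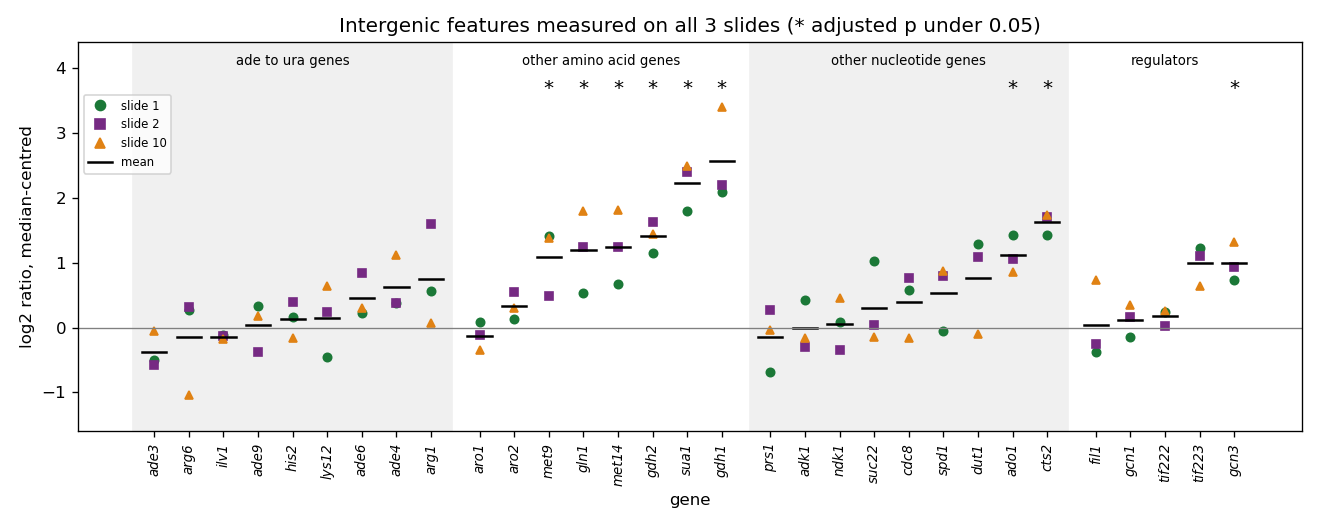
Log2 ratio of the intergenic features measured on 3 slides, for the biosynthesis genes (9, ade to ura) and the lists of other amino acid (8), other nucleotide (9, with cts2, prs1 and cdc8 placed there by symbol) and regulator genes (5), with 1 marker per slide, a bar for the mean and a star where the adjusted p was under 0.05. The means of the biosynthesis genes lie between -0.38 and 0.74 with no star, and 6 of the 8 other amino acid features have one.

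The genes that share the symbol pattern but have other roles gave no call. They are trp1322 and trp663, TRP-like ion channel genes, arg82, an inositol polyphosphate kinase gene, and leu5, a coenzyme A transporter gene. Their 4 coding means ran from -1.09 at trp1322 to 0.37 at arg82, and their 3 intergenic features, seen on slide 10 alone, from -0.57 to -0.19.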

How the data were processed

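The authors quantified each 2-colour slide with TIGR Spotfinder, per the labels' protocols. Per the file headers, the deposited scanner files give spot intensity and local background of channels A and B. The deposited series table holds log10 values of 1 channel, B on slides 1 and 2 and A on slide 10. They matched that channel within 0.006 at 99.6% to 99.9% of spots. The match was reached after 1 constant was removed per feature kind and per first or second spot. The column medians were 0.01, 0.02 and -0.04 on slides 1, 2 and 10. How the deposited values were centred is unknown. Being intensities and not ratios to input, they served only as an alternative of an unlike measure.

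Spots without intensity in both channels were left out, log2 ratios were centred on each slide's median, and each feature's 2 spots were averaged. The mean of each feature with 3 slides was compared with 0 by limma 3.58.1 under R 4.3.3 (lmFit and eBayes, two-sided, threshold 0.05 after Benjamini-Hochberg adjustment). The labels state separate experiments but not how cultures relate, so p-values measure the spread between slides. The number of arrays limits the precision. On simulated data for the test of a ratio against 0 over 3961 features, shifts of 1, 2 and 3 were recovered in 28.4%, 97.0% and 100% of cases, and 5.06% of calls were false. The simulated features were independent and, apart from 200 shifted ones, centred on 0. In the real data the means had a median of 0.36 for intergenic and -0.28 for coding features. The simulated rates therefore do not carry over to the calls given here.

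The members and lists were chosen with earlier results of these data known, and the orientation of slide 10 and the percentile list follow from them. Named are the members that passed and the highest and lowest mean of each pathway and kind on 3 slides, with the features of the other lists that passed; the features on 2 slides, the trp, arg1 and leu1 coding features and the genes around ura4 were added after their values were seen, as was the trimming of the nucleotide list by annotation. Names were matched to the RefSeq annotation (ASM294v3); the build of the array design is not given in the sources used here. Names ending in the word Missing and argx were not used, and no feature of arg41 was matched.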

Additional observations from a re-analysis of the deposited data

How the results depend on the processing

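Of 119 values recomputed under other settings, 90 kept their direction and side of the threshold or stayed within the allowed range. Another 21 moved, 7 weakened and 1 was labelled reversed. Some of the 90 were bound to stay, since with channel B over A on all slides 0 of 3961 features were enriched. The percentile list read that way counts as kept at 5 of 48 intergenic features, although it held other features. The tally is therefore no measure of robustness. No paired analysis was possible because there is 1 group. Averaging spots by their median was not run, since features have 2 spots. The count of depleted coding features, 2, was 0 with channel B over A on all slides, 0 with local background subtracted and 0 in the deposited table, and 0 to 5 when slides were left out (0 without slide 2, 5 without slide 10, which adds trp1, trp4 and arg1). At lys12 the mean was -0.88 with channel B over A on all slides, -2.10 with background subtracted (limma adjusted p = 0.0753) and -0.42 in the deposited table. At ade3 it was -1.32, -2.10 (adjusted p = 0.0890) and 0.0055 under the same settings. All values given here for the deposited table are centred intensities of 1 channel and not ratios to input. They are thus an unlike measure, and a change of sign or size there is no reversal of a ratio. Enriched intergenic features numbered 0, but 1 with loess (ade4, limma adjusted p = 0.0191) and 3 of 21 with 2 slides admitted. Enriched coding features numbered 0, but 1 with kinds centred apart. The spread of intergenic pathway medians, 0.05 over 2 pathways, was 0.72 with channel B over A on all slides, 0.88 in the deposited table, and 0.00077 to 0.51 with slides left out, and that of coding medians 0.61 to 1.15 with slides left out. The percentile list held 5 of 48 intergenic features, 3 of 30 (10%) without dim denominators, and 4 of 21 (19.0%) without slide 10. The intergenic minus coding difference, 0.74, ran from 0.57 to 0.89 with slides left out. Of coding features it held 1, but 2 with channel B over A on all slides, 0 with background subtracted, 0 with normexp, 0 with loess, 4 in the deposited table, 2 with kinds centred apart, and 0 to 2 with slides left out. The percentile list was added after the data were seen. The cause of these shifts was not tested. Signal over the negative controls limits slides 1 and 2, on which 19 of 59 and 4 of 42 measured members exceeded their limit.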
